A study of Mus musculus with 5 samples.

Results

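Skeletal muscle genes were followed across muscle stages in single cells of the embryonic mouse limb and in the neonatal penis, set beside it as tissue without skeletal muscle. The set held 37 genes of the 32285 in the deposited tables: 10 of the thick filament (*Myh3*, *Myh7*, *Myh8*, *Myl1*, *Myl2*, *Myl3*, *Myl4*, *Mylpf*, *Mybpc1*, *Mybph*), 11 of the thin filament (*Acta1*, *Actc1*, *Tnnc1*, *Tnnc2*, *Tnni1*, *Tnni2*, *Tnnt1*, *Tnnt2*, *Tnnt3*, *Tpm2*, *Neb*), 8 of the Z-disc, M-line and titin (*Actn2*, *Actn3*, *Ttn*, *Myom1*, *Myom2*, *Myom3*, *Tcap*, *Ldb3*), 5 of calcium handling and energy supply (*Ryr1*, *Cacna1s*, *Casq2*, *Atp2a1*, *Ckm*) and 3 of the acetylcholine receptor (*Chrna1*, *Chrng*, *Chrnd*). They were taken by gene symbol from a fixed list, and each of the 37 was found once. The study set androgen signalling in the forming penis bone beside that in the limb skeleton. Its scRNA-seq comprised 3 libraries of the penis at postnatal day 6, with the prepuce removed to keep the glans, and 1 library each of forelimb and hindlimb, labelled embryonic day 15. All 5 libraries came from untreated mice that the labels give as C57BL/6N and the study's methods as C57BL/6J. The 3 penis males came from more than 1 litter, and the limbs, by the study's methods, from several male embryos. No source used here ties a library to a litter or to embryos.

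In a sarcomere, myosin thick filaments pull on actin thin filaments, the troponins and tropomyosin gate that pull by calcium, and titin, the M-line and the Z-disc hold the lattice in register. Muscle forms as *Pax7* progenitors give rise to *Myog* myoblasts, which leave the cell cycle, fuse and fill with sarcomeres, while acetylcholine receptors gather under the motor nerve. Fetal muscle uses embryonic and perinatal myosins, cardiac actin and the fetal gamma subunit of the receptor before adult isoforms replace them.

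The kept cells of the penis libraries numbered 6788, 7085 and 5708, with 68417925, 68127411 and 51529854 UMIs. The forelimb held 22057 cells with 142718533 UMIs and the hindlimb 20514 cells with 148752710. A UMI is a molecular tag that counts 1 captured transcript, and levels are given as UMIs per 1000000 UMIs of the summed cells (CPM), with no scaling by gene length. Forelimb and hindlimb shared 203 cell barcodes, and no other pair of libraries shared over 88.

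Limb cells were put into 3 gates by UMIs of genes that mark the stages. The progenitor gate took cells with *Pax7* and no *Myog* (760 forelimb and 633 hindlimb cells), the myoblast gate cells with *Myog* (1863 and 1397), and the fibre gate cells with at least 2 UMIs of *Ckm*, the muscle creatine kinase (90 and 38). Cells with at least 2 *Ckm* UMIs were kept out of the first 2 gates. Of the other genes of their stage, some parted the gates by share of cells and some did not. *Msc*, a regulator of muscle precursors, was read in 74.9% and 77.6% of progenitor-gate cells and in 10.1% and 12.5% of myoblast-gate cells, and the fusion gene *Mymk* in 30.0% and 30.6% of myoblast-gate cells and in 0.526% and 0.948% of progenitor-gate cells. *Myf5*, *Heyl* and *Mymx* also parted these gates. *Vgll2*, a committed myoblast marker, was read in 52.0% and 63.3% of progenitor-gate cells and 48.2% and 47.6% of myoblast-gate cells. For *Myod1* these shares were 39.7% and 44.1% against 45.2% and 46.8%, and for *Rbm24* 43.3% and 52.1% against 51.7% and 51.8%. By CPM *Vgll2*, *Myod1* and *Rbm24* stood higher in the myoblast gate. The fibre gate was the smallest. Only 16 forelimb and 6 hindlimb cells held 5 or more *Ckm* UMIs, and 10 of the 90 and 4 of the 38 fibre-gate cells held UMIs of fewer than 5 of the 37 genes. UMIs of 5 or more of the genes were read in 1083 of the 1863 and 826 of the 1397 myoblast-gate cells. For the progenitor gate this held in 442 of 760 and 388 of 633 cells. In the fibre gate *Myog* stood at 911.7 and 925.6 CPM, against 899.6 and 804.3 in the myoblast gate. Median UMIs per cell were 8776, 7686 and 7148 over the progenitor, myoblast and fibre gates of the forelimb. In the hindlimb they were 10198, 8767 and 8478, so the median depth did not rise along the stages. Among the 19581 penis cells, the same gates held 22, 4 and 20 cells.

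The 37 genes together took 0.124% of UMIs in forelimb progenitor-gate cells, 0.683% in myoblast-gate cells and 3.33% in fibre-gate cells. The hindlimb shares were 0.127%, 0.715% and 3.95%. Without *Ckm*, which set the fibre gate, the fibre-gate shares were 3.29% and 3.92%. A progenitor-gate cell held UMIs of a median of 5 of the genes in either limb, a myoblast-gate cell 7, and a fibre-gate cell 15 in the forelimb and 18 in the hindlimb, *Ckm* included. In limb endothelial cells, which should lack them, the share was 0.0188% and 0.0152%, and over each penis library it lay between 0.0227% and 0.0240%. Because the myoblast gate was the largest, it held most of the transcripts: 59.2% of all UMIs of the set in the forelimb and 62.3% in the hindlimb, against 15.0% and 9.34% in the fibre gate and 21.2% and 22.7% in cells outside the gates.

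**Figure D1:**
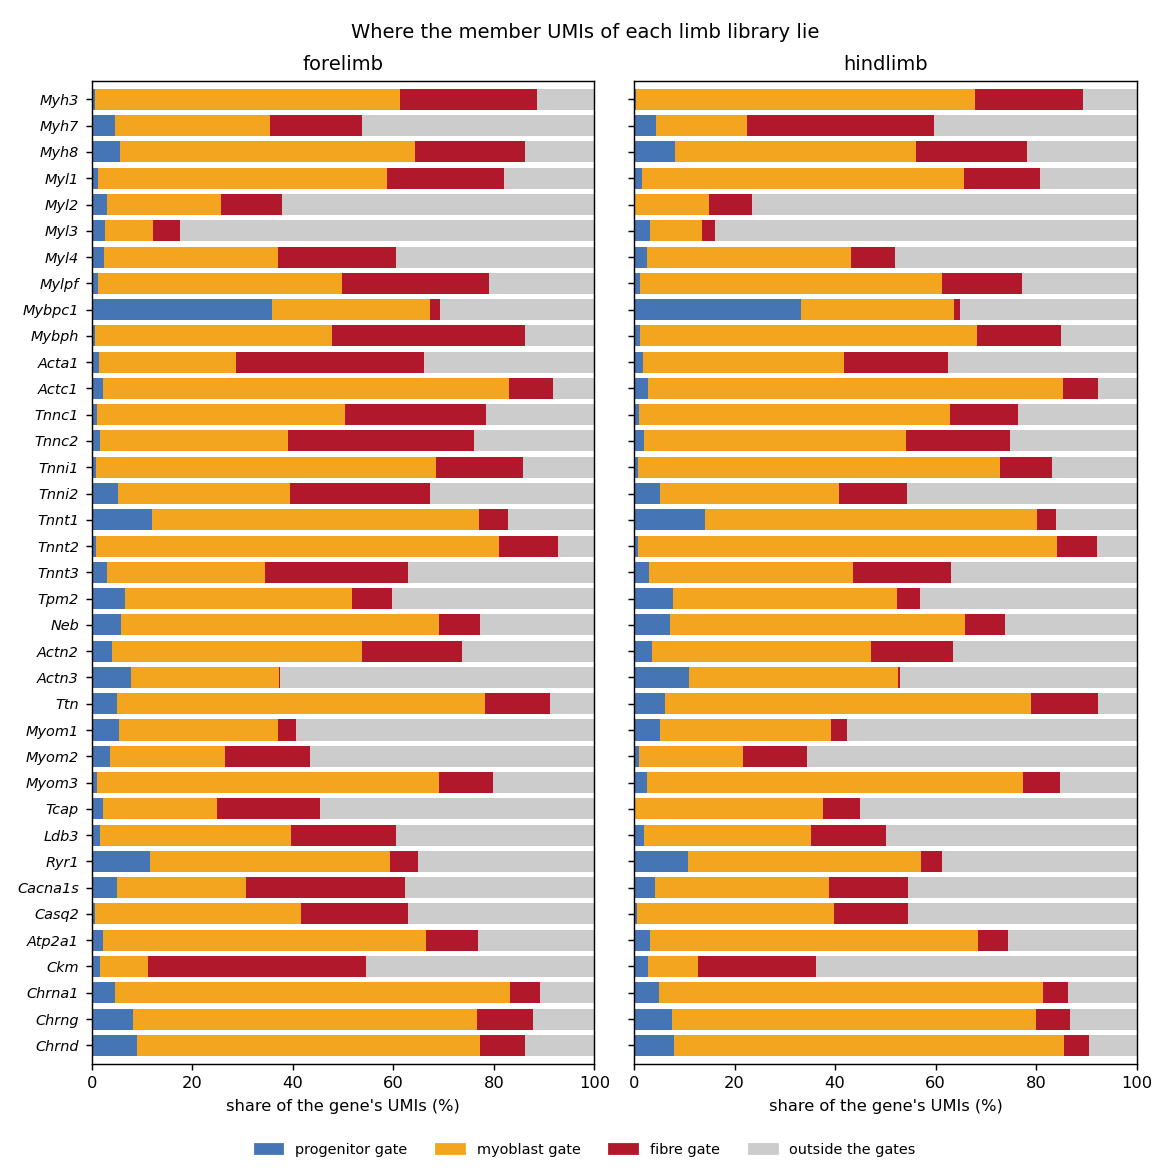
Horizontal bars give, for each gene and limb library, the share of its UMIs (%) in progenitor-gate, myoblast-gate and fibre-gate cells and outside the gates. The bars of *Actc1*, *Tnnt2* and *Ttn* are over 90% coloured in both limbs, and those of *Myl3* are over 80% grey.

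The share inside the gates separated the genes. *Actc1* (cardiac alpha-actin, the main actin of fetal muscle) had 91.8% of its forelimb and 92.3% of its hindlimb UMIs there, *Tnnt2* (cardiac troponin T) 92.7% and 92.1%, and *Ttn* (titin, the molecular spring) 91.2% and 92.3%. At the other end, *Myl3*, a slow myosin light chain, had 17.6% and 16.2%. *Myl2*, *Myom1*, *Myom2* and *Tcap* also had under 50% in both limbs. *Mybpc1*, the slow myosin-binding protein C, was the gene with the largest progenitor share, at 35.9% and 33.3% of its UMIs.

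The first step asked which genes rose as progenitors became myoblasts. Of the 36 genes counted (*Ckm* was left out because it set a gate), 27 rose and 1, *Mybpc1*, fell between the progenitor and the myoblast gate in edgeR's quasi-likelihood test (adjusted p under 0.01 and a log2 fold-change past 1, 2 limb libraries with the library as a block). Over all 15162 genes tested, 6.79% passed by the same rule, 5.39% upward and 1.4% downward. The median log2 fold-change was 2.53 over the 36 genes and 0.00076 over all genes. In both limbs 35 of the 36 stood higher in the myoblast gate, a count not made over all genes. All 11 thin filament genes rose, as did all 3 receptor genes, 6 of the 10 thick filament genes, 5 of the 8 genes of the Z-disc group and 2 of the 4 calcium genes counted.

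Among thin filament genes, *Tnnt2* went from 10.4 CPM in forelimb and 7.83 in hindlimb progenitor-gate cells to 465.9 and 434.3 in myoblast-gate cells (log2 fold-change 5.58, SE 0.16, adjusted p = 1.05e-06). *Tnni1*, the slow troponin I, went from 6.45 and 5.17 CPM to 234.1 and 229.1 (log2 fold-change 5.27, SE 0.13, adjusted p = 7.21e-07). *Tnnc1*, the slow and cardiac troponin C, went from 4.94 and 4.89 CPM to 103.3 and 141.6 (log2 fold-change 4.58, SE 0.16, adjusted p = 2.34e-06). No progenitor value came near a myoblast value, although in the myoblast gate the counting intervals of the 2 limbs lay apart for *Tnnt2* and *Tnnc1*. *Actc1* stood at 107.5 and 113.0 CPM in progenitor-gate cells, above its 14.8 and 7.36 CPM in endothelial cells, and at 1697 and 1706 CPM in myoblast-gate cells (log2 fold-change 3.91, SE 0.14, adjusted p = 2.94e-06). *Acta1*, the actin of mature skeletal muscle, went from 9.88 and 6.85 CPM to 77.4 and 77.2 (log2 fold-change 3.17, SE 0.15, adjusted p = 9.72e-06).

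Thick filament genes showed the widest spread. *Myh3*, the embryonic myosin heavy chain, had 3.16 and 1.26 CPM in progenitor-gate cells and 112.2 and 142.3 in myoblast-gate cells (log2 fold-change 5.79, SE 0.31, adjusted p = 1.55e-05), the largest change of the set. *Mybph*, a myosin-binding protein, rested on 4 and 5 progenitor UMIs and went from 0.549 and 0.699 CPM to 16.2 and 20.0 (log2 fold-change 4.77, adjusted p = 7.32e-05). The fast light chains *Mylpf* and *Myl1* rose by log2 fold-changes of 4.39 and 4.23 (adjusted p = 1.05e-06 and 7.21e-07). *Myh8*, the perinatal heavy chain, rose less, from 9.20 and 12.3 CPM to 42.0 and 36.6 (log2 fold-change 1.86, adjusted p = 0.00331). *Myh7*, the slow heavy chain, had only 3 UMIs per library in progenitor-gate cells and 20 and 12 in myoblast-gate cells, and did not pass (adjusted p = 0.332).

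*Mybpc1* went the other way. It stood at 175.2 CPM in forelimb and 172.1 in hindlimb progenitor-gate cells and at 66.1 and 80.8 in myoblast-gate cells (log2 fold-change -1.29, SE 0.11, adjusted p = 0.000123). The groups did not overlap. Thinned to 2000 UMIs a cell, with shallower cells left out, 28.1% and 25.9% of progenitor-gate cells held a *Mybpc1* UMI. For myoblast-gate cells these shares were 9.30% and 11.4%, and for endothelial cells 0.356% and 0.0905%. Unthinned, these shares were 65.0% and 62.4%, 23.3% and 29.1%, and 1.83% and 0.958%, at median depths of 6120 and 8045 UMIs per endothelial cell. With the cells that held markers of another type left out, the fall was -0.58 on the log2 scale and no longer past the limit of 1. *Tnnt1*, the slow troponin T, and *Tpm2*, beta-tropomyosin, were also already high in progenitor-gate cells: *Tnnt1* at 254.6 and 276.8 CPM and *Tpm2* at 253.9 and 258.1. Unlike *Mybpc1* they rose further, to 596.8 and 659.7 CPM for *Tnnt1* (log2 fold-change 1.20, adjusted p = 0.000127) and to 753.8 and 765.1 for *Tpm2* (log2 fold-change 1.53, adjusted p = 1.11e-05).

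In the Z-disc, M-line and titin group, *Ttn* went from 130.1 and 149.0 CPM to 812.6 and 916.4 (log2 fold-change 2.59, adjusted p = 0.000176), and the M-line gene *Myom3* from 0.686 and 1.54 CPM to 19.0 and 22.5 (log2 fold-change 4.18, adjusted p = 3.42e-05). *Ldb3*, a Z-disc adaptor, and *Actn2*, the Z-disc cross-linker, rose by log2 fold-changes of 3.14 and 2.47 (adjusted p = 0.000623 and 0.000417). Of the calcium genes, *Casq2*, a calcium store protein, had 3 UMIs in each progenitor gate and 204 and 195 in the myoblast gates, and *Atp2a1*, the calcium pump of the sarcoplasmic reticulum, went from 4.53 and 5.45 CPM to 56.5 and 58.0 (log2 fold-change 3.48, adjusted p = 4.49e-06). *Ryr1*, the calcium release channel, was at 35.7 and 31.2 CPM in progenitor-gate cells and 62.9 and 68.6 in myoblast-gate cells. Its log2 fold-change of 0.93 (adjusted p = 0.00294) fell short of the limit on size. *Casq2* overlaps 2 annotated genes on its own strand, *Gm43244* and *4632404M16Rik*, so its count could be split.

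The 3 receptor subunits moved at this step. *Chrna1*, the alpha subunit that binds acetylcholine, went from 17.0 and 15.2 CPM to 124.3 and 117.9 (log2 fold-change 2.87, SE 0.18, adjusted p = 3.05e-05). *Chrng*, the fetal gamma subunit, went from 6.45 and 5.31 CPM to 23.4 and 26.4 (log2 fold-change 2.03, SE 0.18, adjusted p = 0.00017). *Chrnd*, the delta subunit, went from 4.12 and 2.94 CPM to 13.6 and 14.5 (log2 fold-change 1.94, SE 0.22, adjusted p = 0.000612). In no case did the gates overlap.

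The promoters of 2 receptor genes and the 2 sarcomeric actins follow because both pairs rose at this step; both actins hold a CArG box, which neither receptor gene does, and *Acta1* shares CAGCTG with the receptor genes. They were chosen after the values had been seen, and each is 300 bases from RefSeq (build GRCm38.p6), 250 before the start site and 50 from it on, 5′ to 3′ on the gene's strand. Capitals mark CAGCTG, the E-box form often bound by MyoD and myogenin, and the CArG box bound by serum response factor, whose 10 letters are CC, 6 letters of A or T, and GG. Both patterns read the same on either strand and they do not overlap here.
Chrna1, chr2:73580289-73580588, minus strand: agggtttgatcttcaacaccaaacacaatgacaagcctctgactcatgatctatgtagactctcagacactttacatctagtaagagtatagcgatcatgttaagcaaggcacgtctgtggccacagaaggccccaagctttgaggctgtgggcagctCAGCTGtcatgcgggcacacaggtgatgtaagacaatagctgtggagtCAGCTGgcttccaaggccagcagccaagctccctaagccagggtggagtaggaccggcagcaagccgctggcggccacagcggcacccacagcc
Chrng, chr1:87205561-87205860, plus strand: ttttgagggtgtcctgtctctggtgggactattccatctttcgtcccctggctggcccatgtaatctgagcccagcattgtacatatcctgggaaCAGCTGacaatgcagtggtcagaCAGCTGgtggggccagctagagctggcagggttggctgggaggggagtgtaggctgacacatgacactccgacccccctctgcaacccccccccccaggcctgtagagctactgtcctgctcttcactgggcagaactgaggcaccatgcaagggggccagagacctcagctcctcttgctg
Actc1, chr2:114052826-114053125, minus strand: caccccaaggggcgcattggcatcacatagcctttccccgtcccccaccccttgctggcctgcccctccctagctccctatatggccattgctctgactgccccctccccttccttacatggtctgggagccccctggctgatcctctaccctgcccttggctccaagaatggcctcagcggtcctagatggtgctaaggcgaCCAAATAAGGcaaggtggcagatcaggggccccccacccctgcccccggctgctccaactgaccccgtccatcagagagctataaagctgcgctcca
Acta1, chr8:123894726-123895025, minus strand: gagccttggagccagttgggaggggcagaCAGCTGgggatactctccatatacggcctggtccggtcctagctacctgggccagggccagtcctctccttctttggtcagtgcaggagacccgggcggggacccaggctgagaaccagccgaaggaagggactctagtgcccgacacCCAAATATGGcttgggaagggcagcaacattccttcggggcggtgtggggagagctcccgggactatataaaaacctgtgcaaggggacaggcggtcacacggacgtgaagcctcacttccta

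CAGCTG starts 92 and 44 bases before the start site of *Chrna1*, 155 and 132 bases before that of *Chrng*, and 221 bases before that of *Acta1*. The CArG box starts 47 bases before the start site of *Actc1* and 73 before that of *Acta1*. The promoter table held 30 of the 37 genes and lacked *Tcap*, *Neb*, *Chrnd*, *Tnni2*, *Actn3*, *Tnnt3* and *Myom2*. CAGCTG was in a promoter of 14 of the 30 (46.7%), against 18.3% of all 27025 genes and 16.3% of all 32851 promoters of that length. A CArG box was in 5 of the 30 (*Myl3*, *Acta1*, *Actc1*, *Myom1* and *Ldb3*; 16.7%), against 1.81% of all genes and 1.63% of promoters. The looser CANNTG was in 27 of the 30 and in 75.0% of all genes. These are matches of letters and not shown to be bound in these cells.

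Several of the genes lie near each other in the genome (GENCODE annotation, GRCm38), and whether other genes lie between them was not examined. *Chrnd* (chr1:87190607-87200070) and *Chrng* (chr1:87204657-87212694) lie on the plus strand, as do *Tnni1* (chr1:135779434-135810989) and *Tnnt2* (chr1:135836354-135852260). The pair *Tnni2* (chr7:142441808-142444410) and *Tnnt3* (chr7:142498836-142516009) holds fast isoforms, also on the plus strand. At the first step *Tnni1* and *Tnnt2* rose by 5.27 and 5.58 on the log2 scale, *Tnni2* and *Tnnt3* by 1.60 and 2.37, and *Chrnd* and *Chrng* by 1.94 and 2.03. Of the 37 genes, 15 overlap a gene on the other strand, among them *Myh7* and the antisense gene *Mhrt*. How the counting used strand is not given in the sources used here.

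The second step set the fibre gate against the myoblast gate. It rests on 90 and 38 cells and shares the myoblast cells with the first step. Of the 36 genes, 28 rose and none fell. Over all genes 1.44% passed, 1.31% upward and 0.139% downward. By an unadjusted p under 0.05, 34 rose and 1, *Actn3*, fell, a count not made over all genes. DESeq2 called 33 higher and 0 lower, against 325 higher and 35 lower of all 15162 genes tested. The median log2 fold-change was 3.35 over the 36 and -0.064 over all genes. In both limbs 35 of the 36 were higher in the fibre gate, a count not made over all genes. With 1 *Ckm* UMI taken as enough for the fibre gate, which puts 989 cells in it, 13 genes rose and 4 fell of 35 tested. Of the 35, 20 had a log2 fold-change above 0. Over all genes that setting gave 265 higher and 199 lower of 15496. With 5 UMIs, which leaves 22 cells, 33 of 35 rose, against 440 of all 14893 genes tested. The second step as given here therefore depends on the *Ckm* limit.

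A large rise was in *Acta1*, from 77.4 and 77.2 CPM to 2042 and 1470 (log2 fold-change 4.56, SE 0.13, adjusted p = 8.44e-07). *Acta1* was read in 18.3% and 18.8% of myoblast-gate cells and 77.8% and 81.6% of fibre-gate cells. Thinned to 2000 UMIs these were 7.42% and 7.23% against 51.1% and 52.6%, beside 1.01% and 1.53% of endothelial cells. Thinning left out cells under 2000 UMIs. It kept 66 of 90 and 27 of 38 fibre-gate cells, and 1768 of 1863 and 1355 of 1397 myoblast-gate cells. *Cacna1s*, the voltage sensor that opens *Ryr1*, went from 1.78 and 3.02 CPM to 42.4 and 50.2 (log2 fold-change 4.38, adjusted p = 0.000221), where *Ryr1* itself went from 62.9 and 68.6 to 140.9 and 224.8 (log2 fold-change 1.45, adjusted p = 0.00515). *Myh7* went from 1.19 and 0.862 CPM to 13.7 and 66.1 (log2 fold-change 5.00 as a description). Of the 36 genes, *Myh7* and *Myl2* passed the filter on low counts only through the fibre gate, where they are high, so their folds are a description. *Myh7* is among the 28 counted as risen. *Casq2* went from 12.1 and 14.0 CPM to 121.4 and 193.1 (log2 fold-change 3.60, adjusted p = 3.27e-05).

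The fast troponins rose together: *Tnnt3* from 37.5 and 38.3 CPM to 656.3 and 677.0 (log2 fold-change 4.20, adjusted p = 1.4e-06), *Tnnc2* from 109.2 and 118.5 to 2080 and 1732 (4.13, adjusted p = 8.44e-07) and *Tnni2* from 68.9 and 59.0 to 1078 and 814.6 (3.95, adjusted p = 8.44e-07). Among slow partners *Tnnc1* rose by 3.30 and *Tnni1* by 2.42 on the log2 scale (adjusted p = 3.05e-06 and 6.4e-06), while *Tnnt1*, at 1029 and 1370 CPM, missed the limit on size (0.99, adjusted p = 0.00117). The M-line gene *Myom2* went from 2.68 and 2.80 CPM to 37.8 and 63.5 (log2 fold-change 4.18, adjusted p = 0.000825), *Ldb3* from 8.32 and 6.97 to 88.2 and 116.4 (3.75, adjusted p = 8.79e-05) and *Mybph* from 16.2 and 20.0 to 253.1 and 182.5 (3.72, adjusted p = 2.34e-05). *Myh3*, *Myh8* and *Mylpf* rose by between 3.40 and 3.50 on the log2 scale, all with adjusted p under 0.001.

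The genes without a call at this step were of different kinds. *Actn3*, the alpha-actinin of mature fast fibres, had 1 UMI in forelimb and 2 in hindlimb fibre-gate cells, or 1.15 and 5.29 CPM, against 105 and 167 UMIs, or 6.24 and 12.0 CPM, in the myoblast gate. It did not pass (log2 fold-change -1.67, SE 0.64, adjusted p = 0.242). *Mybpc1* stood at 81.3 and 108.4 CPM (log2 fold-change 0.39, adjusted p = 0.298), *Chrna1* at 184.4 and 290.9 (0.95, adjusted p = 0.0307) and *Chrnd* at 34.4 in both limbs (1.35, adjusted p = 0.0365), where the third subunit *Chrng* rose to 74.4 and 89.9 (1.76, adjusted p = 0.00199). *Tcap*, a titin cap of the Z-disc, and *Myl2*, a slow light chain, had 18 and 5, and 8 and 4, UMIs in the fibre gate.

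**Figure D2:**
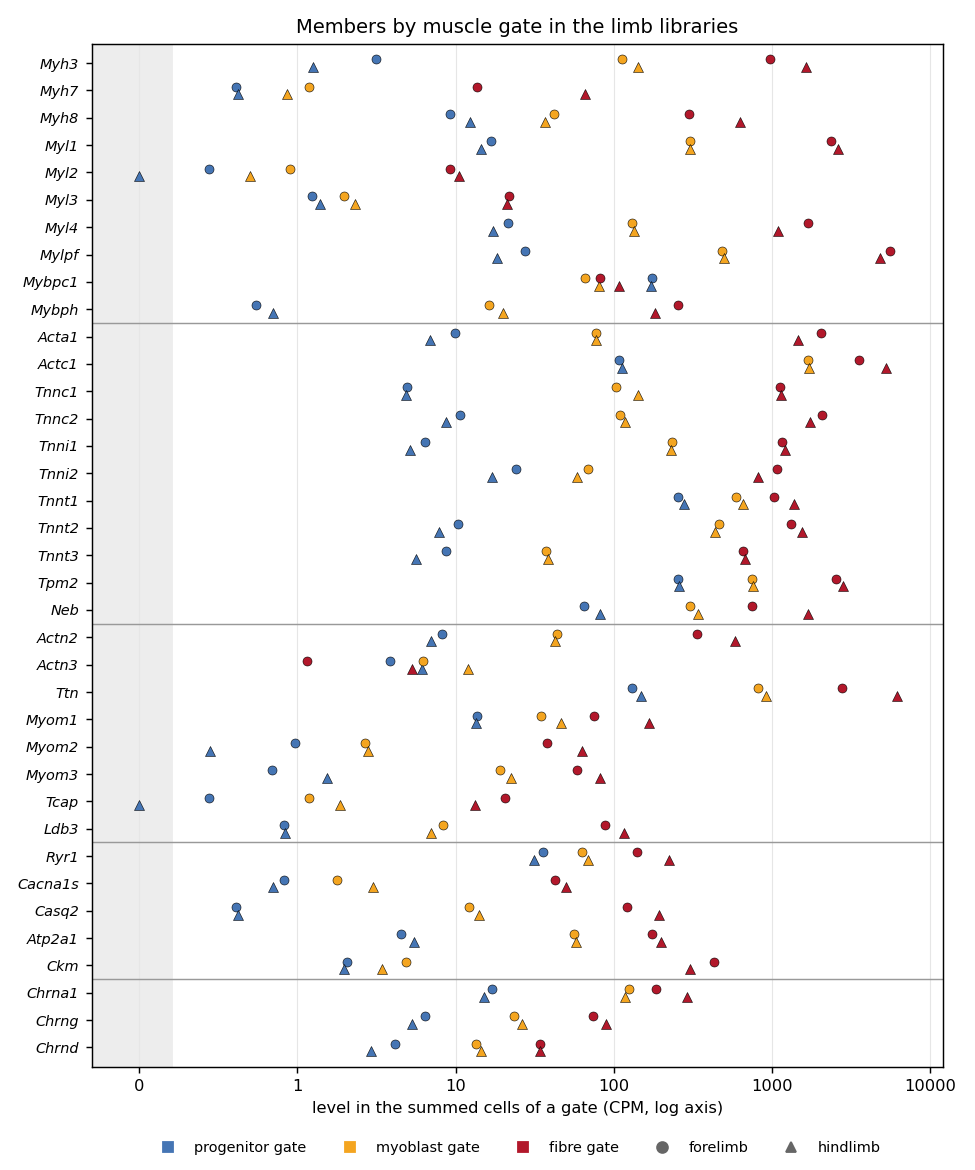
Each point is the level of a gene (CPM, log axis; 0 is drawn in the grey band) in the summed cells of a gate, with circles for forelimb and triangles for hindlimb and lines parting the functional groups. Points run from progenitor through myoblast to fibre gate for most genes; *Mybpc1* has its progenitor points on the right, and *Actn3* its fibre points on the left.

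Whether a gene changed by different amounts at the 2 steps was tested as the difference of both contrasts in 1 fit, added after the contrasts had been seen. Of the 36 genes, 4 rose more at the first step (*Tnnt2*, difference -3.84, adjusted p = 0.000324; *Tnni1*, -2.85, adjusted p = 0.000399; *Actc1*, -2.48, adjusted p = 0.00126; *Atp2a1*, -1.73, adjusted p = 0.00694). Over all genes 0.574% passed in that direction. *Tnni2* rose more at the second step (2.35, adjusted p = 0.000709), and the difference was also positive for *Mybpc1* (1.68, adjusted p = 0.00974), against 0.237% of all genes (0.811% in either direction). Without the library block only *Tnnt2* and *Tnni1* passed. The split by direction moved with the gates. With 1 *Ckm* UMI, 0 genes rose more at the second step and 21 at the first. With 5 UMIs these were 10 and 6, and without mixed cells 2 and 13. Over all genes the counts were 147 and 530 of 15496, 217 and 539 of 14893, and 41 and 299 of 12000. With 1 *Ckm* UMI the difference of *Tnni2* was 0.12 (adjusted p = 0.886) and that of *Mybpc1* -0.18, while *Tnnt2* and *Tnni1* passed in every setting run.

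Other cell types were read in the gates too. The summed level of 6 mesenchyme markers was 2033 and 1472 CPM in progenitor-gate, 4165 and 3662 in myoblast-gate and 3892 and 1582 in fibre-gate cells. The 7 smooth muscle markers summed to 349.2 and 265.8, 440.3 and 436.2, and 1916 and 1309 CPM. In the fibre gate 7 of 7 of them had a UMI in the forelimb and 6 of 7 in the hindlimb, where *Actg2* was at 0. *Acta2*, which young skeletal muscle also uses, made up 1543 and 1119 CPM of that sum, and *Myh11*, the smooth muscle myosin, had 34 and 2 UMIs. The 5 pericyte markers summed to 234.8 and 82.0 CPM in the fibre gate, 85.1 and 74.6 in the myoblast gate and 152.9 and 150.6 in the progenitor gate. The part of such cells in *Tpm2*, *Tnnt1* and *Myom1*, which penis smooth muscle also holds, was not tested. The fibre gate kept only to cells with a committed myoblast marker had 83 cells. There 32 of 35 genes rose, against 313 of all 15202 genes tested.

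A wider list of 87 other genes of the sarcomere, triad, neuromuscular junction and muscle metabolism moved mostly in the same direction, with a smaller share called. At the first step 75 were tested and 35 rose, against 5.39% of all genes. The 1 that fell, against 1.4% of all genes, was the stress-responsive titin partner *Ankrd1*. It went from 18.9 and 20.8 CPM to 7.31 and 10.1 (log2 fold-change -1.24, adjusted p = 0.00135). The Z-disc gene *Myot* had 0 progenitor UMIs and 79 myoblast UMIs, and was at least 12.4-fold higher against a floor of 3 UMIs over the group. The largest folds of genes with progenitor UMIs were in *Klhl41* (log2 fold-change 6.29), *Lmod3* (5.75), *Unc45b* (5.35) and *Cox6a2* (5.26). *Klhl41* and *Lmod3* act in thin filament assembly, *Unc45b* is a myosin chaperone and *Cox6a2* is the muscle form of a respiratory chain subunit. The adjusted p of these 4 lay between 1.42e-05 for *Klhl41* and *Unc45b* and 9.34e-05 for *Lmod3*. *Lmod3* had 0 and 5 progenitor UMIs.

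At the second step 34 of the 75 rose and none fell by the same rule, against 1.31% and 0.139% of all genes. None was lower at an unadjusted p under 0.05 either, a count not made over all genes. DESeq2 called 48 higher and 0 lower, against 325 higher and 35 lower of all 15162 genes tested. Among the 75, *Xirp1*, *Lmod2*, *Tmod4* and *Ckmt2* passed the filter on low counts only through the fibre gate, where they are high. Any calls of these genes at this step are a description. *Csrp3*, a Z-disc mechanosensor, went from 2.26 and 3.45 CPM to 99.6 and 103.1 (log2 fold-change 5.25, adjusted p = 2.67e-05). The triad protein *Trdn* (4.06), the Z-disc gene *Myoz2* (3.92), the fatty acid carrier *Fabp3* (3.88) and *Myot* (3.81) followed, with adjusted p between 8.79e-05 for *Fabp3* and 0.0018 for *Myot*. By list, the first step took 18 of 38 sarcomere, 8 of 15 triad, 3 of 10 junction and 6 of 12 metabolism genes upward, and the second step 17, 10, 1 and 6. The median log2 fold-changes of the whole list were 1.12 and 1.84.

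Forelimb and hindlimb could be set side by side only, with 1 library each and exact 95% Poisson intervals that cover counting error alone. In progenitor-gate cells the intervals of 33 of the 37 genes overlapped between limbs, in myoblast-gate cells 27, and in fibre-gate cells 18. The same counts were not made over all genes, so they are not shown to be particular to the set. In the fibre gate the hindlimb was above for 13 genes, with *Ttn* at 6149 CPM against 2775, *Neb*, the thin filament ruler, at 1682 against 752.5, *Myh3* at 1653 against 975.9, *Myh8* at 624.1 against 301.2 and *Chrna1* at 290.9 against 184.4. The forelimb was above for 6, 1 of them *Ckm*, whose UMIs set the gate, with *Myl4*, an embryonic light chain, at 1694 against 1090, *Acta1* at 2042 against 1470 and *Tnni2* at 1078 against 814.6. In the myoblast gate the intervals also lay apart for *Myh3*, with 112.2 CPM against 142.3 in the hindlimb, and for *Tnni2*, with 68.9 against 59.0. These are single libraries, and no difference between limbs was tested. The fibre-gate sums held 873083 UMIs in the forelimb and 378114 in the hindlimb, and their deepest cells 64405 and 50933. The intervals do not cover the weight of such deep cells. Cells with markers of another type were 66.7% of the forelimb and 44.7% of the hindlimb fibre gate. The mesenchyme marker *Col1a1* stood there at 1340 and 608.3 CPM. The part of either in these values was not tested.

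*Myh7* was rare, with 12 UMIs in the forelimb and 25 in the hindlimb fibre gate. It reached 2 UMIs in 2 fibre-gate cells of either limb and, with the myoblast gate added, in 6 forelimb and 4 hindlimb cells. The 2 forelimb cells held fast as well as slow genes, with 3446 CPM of fast *Tnnc2* and 3514 of slow *Tnnc1*, and were deep, at a median of 29741 UMIs. Over the 87 forelimb fibre-gate cells without *Myh7*, these levels were 1834 and 815.9 CPM. The 2 hindlimb cells held 3361 CPM of *Tnnc2* and 2889 of *Tnnc1*, at a median of 37039 UMIs, against 1295 and 650.9 CPM in the 35 cells without *Myh7*. These are sums over 2 cells in each limb, set side by side with no test.

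The penis libraries gave the level of the set in tissue taken to lack skeletal muscle. Over whole libraries, 29 of the 37 genes were higher in the limbs and none was lower (2 limb and 3 penis libraries). Over the 21723 genes tested, 24.5% passed, 11.5% higher in the limbs and 13% lower. By an unadjusted p under 0.05, 35 were higher and 1, *Myl2*, lower, a count not made over all genes. DESeq2 also called 29 higher and 0 lower, against 2373 higher and 2707 lower of the 21723 genes. *Actc1*, *Myh8*, *Mybph*, *Cacna1s* and *Chrnd* passed the filter on low counts only through the limb libraries, where they are high, so their folds are a description. They are among the 29 counted as higher. The median log2 fold-change was 3.06 over the set and -0.0076 over all genes. Tissue and age cannot be told apart here. The progenitor, myoblast and fibre gates held 22, 4 and 20 penis cells and 1393, 3260 and 128 limb cells. The part of cell number in these folds was not tested. With cells in the 3 gates left out of all libraries, 22 were still higher and *Myom3* was lower (log2 fold-change -1.68). Over all genes that setting gave 2460 higher and 2704 lower of 21706. The median log2 fold-change over the set was 1.71 there. Limb endothelial cells, which should lack these genes, also held them: *Actc1* was at 24.7 and 17.4 CPM outside the gates and at 14.8 and 7.36 in endothelial cells, and *Mylpf* at 29.6 and 20.7 and at 18.4 and 13.2. The part of this background in the 22 was not tested.

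*Actc1* had 247.8 and 193.4 CPM in the limb libraries and 0.0877, 0.0734 and 0.0194 in the penis libraries (log2 fold-change 11.79 as a description). *Myl1* had 62.5 and 44.2 CPM against 0.190, 0.176 and 0.116 (8.39, SE 0.23, adjusted p = 6.1e-08), *Tnnc2* 34.4 and 21.3 against 0.117, 0.161 and 0.233 (7.45, SE 0.30, adjusted p = 3.32e-07) and *Acta1* 33.4 and 18.1 against 0.161, 0.294 and 0.311 (6.74, SE 0.35, adjusted p = 1.13e-06). Penis levels of these genes are a handful of UMIs: 12 of *Actc1* in all 3 libraries against 64128 in the limbs. *Chrnd* had 0, 0 and 1 penis UMIs and 595 limb UMIs, a pooled ratio of 384 with an exact 95% counting interval of 68.6 to 15189.6. *Chrna1* and *Chrng* were higher in the limbs by log2 fold-changes of 4.58 and 4.55 (adjusted p = 1.72e-07 and 2.42e-07).

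Further down the list, *Tnnt2* was higher in the limbs by 6.16 on the log2 scale (adjusted p = 8.09e-08), and *Ttn* and *Mylpf* by 5.29 and 5.28 (adjusted p = 1.22e-08 and 1.51e-07). The folds of *Mybph* and *Myh8*, 6.53 and 6.39, are a description. The 8 genes without a call had sizeable penis levels beside their limb levels, or few UMIs in both. *Tpm2* had 161.2, 151.0 and 150.3 CPM in penis and 196.2 and 160.4 in limb libraries, which overlap (log2 fold-change 0.28, adjusted p = 0.0251). *Tnnt3* had 6.46, 6.00 and 6.40 against 14.1 and 8.85 (0.94, adjusted p = 0.00162) and *Myom1* 6.77, 7.24 and 7.34 against 12.9 and 12.7 (0.91, adjusted p = 6.94e-06), both short of the limit on size. *Myl2* went against the rest, with 0.643, 0.543 and 0.679 CPM in penis and 0.462 and 0.316 in limb (-0.60, adjusted p = 0.0491). *Tcap*, *Ldb3*, *Myom3* and *Myl3* made up the remainder.

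**Figure D3:**
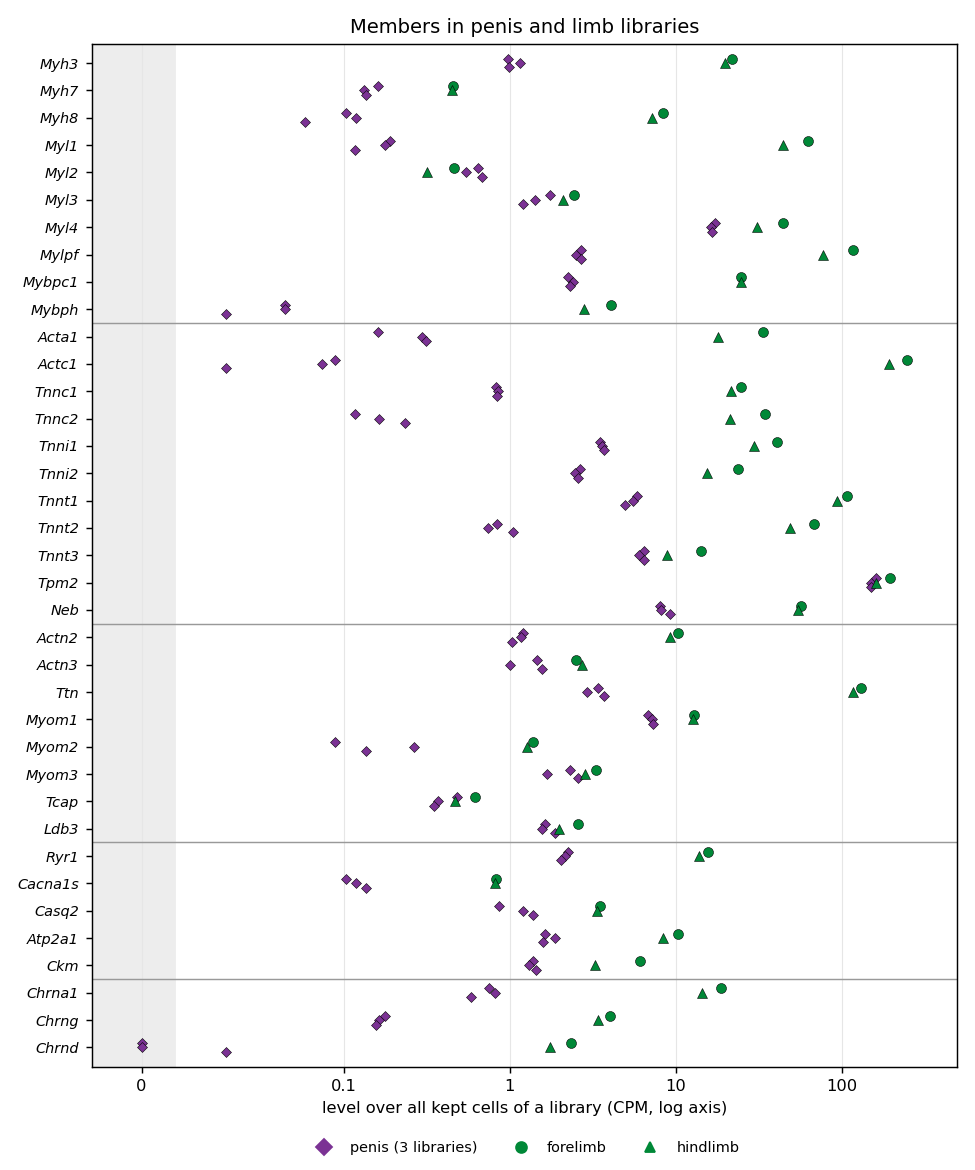
Each point is the level of a gene over all kept cells of a library (CPM, log axis; 0 is drawn in the grey band), with diamonds for the 3 penis libraries and green points for forelimb and hindlimb. Both limb points lie right of all penis points for 34 of the 37 genes, *Tpm2* and *Tcap* overlap, and *Myl2* lies the other way. The same count was not made over all genes.

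The wider list held calls in both directions between tissues: of 84 genes tested, 34 were higher in the limbs and 8 lower. Over all 21723 genes tested, 11.5% were higher and 13% lower. *Smpx* (13.1 and 15.1 CPM against 0.102, 0.0294 and 0.0970; log2 fold-change 7.60), *Trim55* (7.39), *Pgam2* (7.01), *Cox6a2* (4.86) and *Ankrd1* (4.52) had the largest folds. Of these only *Cox6a2* (adjusted p = 3.13e-06) passed the filter on low counts also through a penis library, so the other folds are a description. *Myh2* and *Xirp2*, also on the wider list, likewise passed it only through the limb libraries. *Smpx* is a small costamere protein, *Trim55* a titin-bound ubiquitin ligase and *Pgam2* the muscle phosphoglycerate mutase. *Pdlim3*, a Z-disc protein named here after its values were seen, was at 262.3, 251.5 and 238.8 CPM in penis against 13.4 and 21.6 in limbs (log2 fold-change -3.78, adjusted p = 8.02e-07).

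The 20 penis cells that met the *Ckm* rule lacked most of the set. Over all of them, 22 of the 37 genes had 0 UMIs, among them *Acta1*, *Actc1*, *Myl1*, *Mylpf* and *Actn2*. The penis libraries held 264, 158 and 6 UMIs of *Tpm2* in these cells, 56, 7 and 0 of *Tnnt1*, 11, 10 and 0 of *Myom1*, and 1, 10 and 0 of *Tnnt2*, so that most *Tnnt1* came from penis 1 and most *Tnnt2* from penis 2. No penis cell outside the gates held UMIs of 10 or more of the 37 genes, against 103 forelimb and 51 hindlimb cells outside the gates.

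Which penis cells carried the remaining levels was asked with a smooth muscle gate: 153, 135 and 124 cells with at least 4 of the 7 smooth muscle markers, set against all other penis cells outside the muscle gates. Of the 37 genes 27 had counts enough to be tested, 8 were higher in the gate and none lower. Among the 8, *Tnnt2* and *Myh7* passed the filter on low counts only through the gate, where they are high, so their folds are a description. Over all 18570 genes tested, 7.42% passed, 3.17% higher and 4.24% lower. By an unadjusted p under 0.05, 11 were higher and 2, *Atp2a1* and *Tnni2*, lower, a count not made over all genes. DESeq2 called 8 higher and 0 lower, against 587 higher and 569 lower of the 18570 genes. The gate itself was defined by other contractile genes of the same cells, and its cells also held pericyte markers, whose 5 genes summed to 2003, 1963 and 2235 CPM against 219.4, 218.9 and 250.3 over the libraries. Smooth muscle cells and pericytes were therefore not told apart.

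*Tpm2* was at 1093, 1115 and 1126 CPM in the gate and at 131.9, 126.3 and 124.4 in other cells (log2 fold-change 3.18, SE 0.05, adjusted p = 9.63e-19). *Myom1*, an M-line protein of striated muscle, was at 68.5, 68.6 and 83.3 CPM against 4.92, 5.65 and 5.35 (3.84, SE 0.16, adjusted p = 1.27e-12). *Tnnt2* was at 18.6, 11.7 and 31.8 CPM against 0.332, 0.331 and 0.239 (6.04), and the gate held 62.7% of its UMIs over both sets of cells. *Tnnt1* was at 33.4, 40.2 and 40.1 CPM against 4.22, 4.65 and 4.03 (3.19, SE 0.21, adjusted p = 1.05e-09). In each of these 4 genes every gate value was above every other value. Unlike for *Tnnt2*, most UMIs of the other 3 over both sets lay outside the gate, which held 18.2% of those of *Tpm2* and of *Tnnt1* and 26.0% of those of *Myom1*.

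*Ldb3* was at 7.12, 10.4 and 18.2 CPM in the gate and 1.46, 1.33 and 1.44 outside it (3.06, adjusted p = 3.61e-06), with 17.1% of its UMIs over both sets in the gate. *Myh7* rested on 7, 7 and 3 UMIs in the gate and 4, 2 and 4 outside it (5.99). *Mybpc1* was at 13.2, 4.53 and 5.30 CPM against 1.95, 2.35 and 2.23 (1.89, adjusted p = 0.00187), and without penis replicate 1, which holds 24 of its 38 gate UMIs, the call was lost (1.15, adjusted p = 0.174). *Myom3* was at 6.03, 5.83 and 6.06 CPM against 2.20, 1.58 and 2.41 (1.60, adjusted p = 0.0044), a call lost when any 1 penis library was left out (adjusted p between 0.024 and 0.0334). The fast light chain *Mylpf* did not pass and was at 1.64, 2.59 and 1.51 CPM against 2.71, 2.51 and 2.73 (adjusted p = 0.653). *Actc1* had 9 UMIs in the gate and 3 outside it and was not tested. Of the wider list 12 of 66 tested genes were higher and 1 lower, against 3.17% and 4.24% of all genes. The largest folds were in *Jph2* (4.46), *Hrc* (3.27), *Tpm1* (2.61) and *Hspb7* (2.37), with adjusted p from 4.25e-18 for *Tpm1* to 6.58e-05 for *Hspb7*. *Xirp1* had only 9, 6 and 6 UMIs in the whole penis libraries and passed the filter on low counts only through the gate, so its fold of 5.09 is a description.

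**Figure D4:**
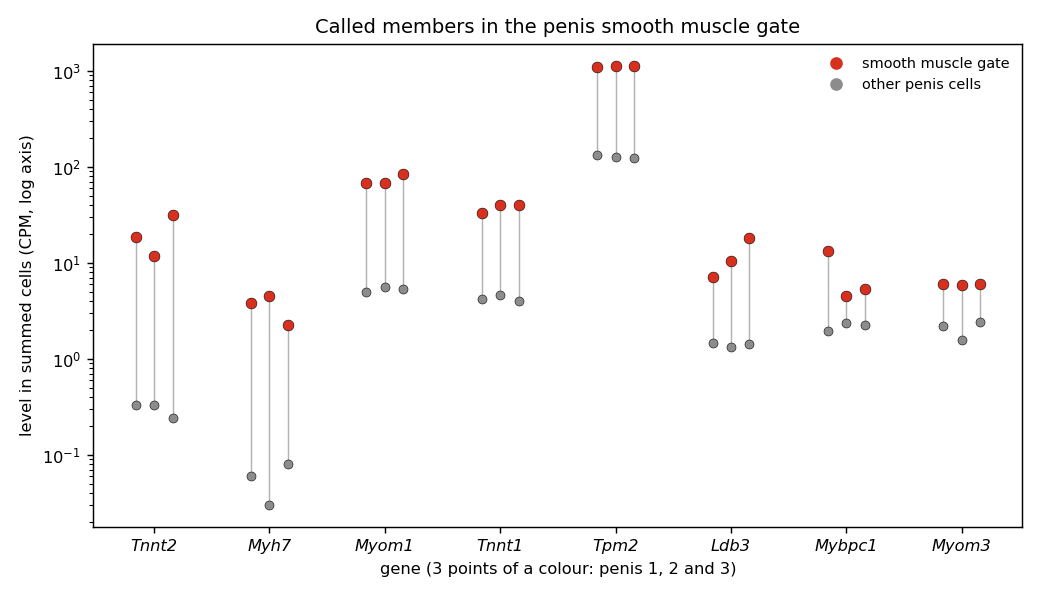
For the 8 genes called higher in the penis smooth muscle gate, red points give the level in the gate and grey points that in other penis cells (CPM, log axis), with penis 1, 2 and 3 from left to right and a line joining the same library. Every red point lies above its grey partner; *Tpm2* is at 1093 to 1126 CPM and *Myh7* at 2.27 to 4.53.

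A few members were read in other classes, taken as cells with at least 4 markers of 1 list and of no other, and chosen after the library levels had been seen. *Mybpc1* stood at 150.9 CPM in 127 forelimb and 127.0 in 148 hindlimb keratinocyte-class cells, near its 175.2 and 172.1 in progenitor-gate cells and above its 6.21 and 9.20 in mesenchyme-class cells. *Tnni2*, the fast troponin I, stood at 31.0, 24.5 and 19.6 CPM in white blood-class cells of the penis libraries and *Ryr1* at 28.1, 19.4 and 18.8. In mesenchyme-class cells *Ryr1* lay between 1.56 and 1.78 CPM, and *Tnni2* was at most 2.32. *Myl4* was read at like levels in penis mesenchyme-class (17.5 to 18.4 CPM) and endothelial-class cells (12.3 to 16.6), and lower in keratinocyte-class cells (1.99 to 4.47). *Actc1*, by contrast, lay between 7.40 and 21.5 CPM in chondrocyte-, endothelial-, glial-, keratinocyte-, mesenchyme- and white blood-class cells of both limbs. It was at 30.1 and 11.8 CPM in 25 and 28 pericyte-class cells and at 0 in the 5 and 4 smooth muscle-class cells. These are values of summed cells with no test.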

How the data were processed

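The authors dissociated mouse penis and limb tissue, used 10X Genomics chemistry and ran Cell Ranger 7.0.0 against mm10 (the submitters' processing notes). What they deposited is a table of unnormalized UMI counts for each library, and no count was changed. Whether introns were counted is not given in the sources used here.

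Barcodes were kept by limits with the study's numbers, which its methods word as reads per cell and which were applied here to genes detected: 500 to 6000 for penis, 100 to 9000 for forelimb and 100 to 9500 for hindlimb, at most 5% (penis) or 10% (limbs) mitochondrial UMIs, and a ratio of log10 genes to log10 UMIs of at least 0.8. Doublets were not called; cells with 3 or more markers of another type (at least 2 UMIs each for mesenchyme and red blood markers) were left out only in an alternative, a broad rule that free RNA also meets. Cells are not replicates, so counts were summed per library and gate and tested with edgeR 4.0.16 in R 4.3.3 (TMM, filterByExpr, quasi-likelihood test, Benjamini-Hochberg over all genes tested), with the library as a block between gates of the same library. The SE was taken from the test, as the size of the log2 fold-change divided by the root of its F value. DESeq2 1.42.0 was an alternative. The scripts were tested on simulated data. Intervals are exact 95% intervals for counting error. Nothing ties the limb libraries to separate animals. Between tissues, p-values measure the spread between these libraries only. Between gates, where the library is a block, they measure how alike the gate difference is across libraries. In the limbs these libraries are of different tissues, forelimb and hindlimb. The penis libraries hold 3 males.

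The genes named with values are those with the largest log2 fold-change in each test, up to 10 in each direction, those that go against the rest and, of the wider list, the first 5; further members were given to describe their group and were chosen after their values had been seen. The members and lists were chosen with earlier results of these data known. The alternatives were DESeq2, library totals without TMM, no low-count filter, no block, all barcodes, other gate limits, and each library left out.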

Additional observations from a re-analysis of the deposited data

Results flagged for a closer look

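Barcodes that the cell filter set aside also met the muscle gates. The *Myog* gate took 4.48% of the 6209 excluded forelimb barcodes (278 of them) and 2.66% of the 5423 excluded hindlimb barcodes (144), against 1 such barcode among all excluded penis barcodes. Among kept cells the shares were higher, at 8.45% and 6.81%, and 13.0% and 9.34% of *Myog* gate barcodes were excluded against 22.0% and 20.9% of all barcodes. Free RNA was not measured in them. Of the 278, 119 missed the complexity limit and 160 the mitochondrial limit. The *Ckm* gate took 0.177% of excluded forelimb barcodes, 11 in number, against 0 in the hindlimb and at most 0.116% in a penis library. They were singled out because the signal lies in data that the comparisons leave out and is above the level in the penis libraries, for *Ckm* in the forelimb only. With all barcodes kept, 27 genes rose at the first step and 31 at the second.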

How the results depend on the processing

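The count of genes called was 29 between limb and penis libraries (28 or 29 with any 1 library left out), 28 at the first muscle step, 28 at the second and 8 in the penis smooth muscle gate (6 or 7 with 1 library left out). Under most alternatives these counts stayed within 1.5 times. Without the replicate block the first step kept 28 calls, the second had 25 and the smooth muscle gate 8. The exception was the second step with 1 *Ckm* UMI as the fibre gate, with 17 calls in either direction. There *Actc1* turned to -0.85, *Tnnt2* to -0.52, *Tpm2* to -0.31, *Neb* to -0.34, *Ttn* to -0.084, *Myom3* to -0.34, *Ryr1* to -0.60, *Atp2a1* to -0.49 and *Chrng* to -0.57 on the log2 scale. These 9 had been called higher in the main setting. None of them passed the limit on size when turned, so the 4 that fell are other genes. That gate holds 989 cells in place of 128. The difference between the steps was the least stable, from 6 calls to 21 with 1 *Ckm* UMI (*Mybpc1* at -0.18), 16 with 5, 17 without a low-count filter, 2 with no replicate block and 15 without mixed cells; the cause was not tested. Leaving out mixed cells left 768 progenitor-, 1245 myoblast- and 51 fibre-gate cells of 1393, 3260 and 128. The median log2 fold-change over the genes tested was then 3.36 at the first step and 2.44 at the second. In the main setting these medians were 2.53 and 3.35. With 5 *Ckm* UMIs 22 fibre-gate cells were left, and with a committed marker, a setting chosen after seeing the data, 83. Genes higher in the later gate numbered 35 of 36 at both steps, with either limb left out. The gates were compared within a library. No paired analysis was possible because, for penis against limb, the tissues share no animal and the labels give the limb libraries no replicate number. The fibre gate holds 128 cells, so levels under about 10 CPM rest on a handful of UMIs there.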
